A study of Arabidopsis thaliana with 6 samples.

Results

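The 6 Arabidopsis thaliana genes covered here are grouped as early flavonoid and flavonol enzyme genes, out of the 1537 genes in the analysed table. They are the chalcone synthase gene CHS (AT5G13930), the chalcone isomerase gene CHI (AT3G55120), the flavanone 3-hydroxylase gene F3H (AT3G51240), the flavonoid hydroxylase gene F3PH (AT5G07990, TT7), the flavonol synthase gene FLS1 (AT5G08640) and the glycosyltransferase gene AT2G22590. All 6 were found by their identifiers. They were chosen by their lower abundance in one genotype, so the difference between the genotypes is described for them without a test. RNA was sequenced from seedlings of the Columbia ecotype, grown for 10 days on half-strength medium plates in long days. The labels give 3 biological replicates of the wild type (Col-0) and 3 of a line named BIC1-YFP, named for BIC1 joined to a yellow fluorescent protein, in a study of BIC1 in brassinosteroid signaling. The labels do not state the promoter of the fusion, the number of lines or whether plants were pooled. No other treatment separates the groups.

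Flavonoids are phenolic compounds that plants make from a product of phenylalanine. Chalcone synthase and chalcone isomerase build the first flavanone, and flavanone 3-hydroxylase turns it into a dihydroflavonol, from which flavonols and anthocyanins branch. In seedlings flavonols screen ultraviolet light and affect auxin transport, and the early enzymes are well known to be induced by light. BIC1 is known to block the activation of cryptochromes, which sense blue light.

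The values are normalized abundances as the authors deposited them, and neither their scaling nor the depth of the libraries is known. They are read here as not divided by gene length. In replicate 1 of both genotypes, values under 15 units lay near whole numbers in the 489 genes of shortest coding length (94.1% and 100%) and in the 489 longest (100% in both). Relative to replicate 1, replicates 2 and 3 had a median of 1.19 to 1.24 in the shortest genes and of 0.869 to 0.973 in the longest, so a smaller dependence on length remained between replicates. Summed over the table, a library holds between 1801802 and 2064622 units. The authors' deposited table holds no adjusted p above 0.0499, so it is a list already selected as different between the genotypes, and a gene that is not in it is not shown to be unchanged. For the same reason the tissue could not be checked against markers. BIC1 (AT3G52740, unnamed in the table) stood at 409, 351 and 259.8 units in the Col-0 libraries and at 16272, 14597 and 21868 in the BIC1-YFP libraries, in the direction of the label. On the first principal component of the listed genes, with 67.5% of their variance, the Col-0 libraries scored -29.6, -28.2 and -14.2 and the BIC1-YFP libraries 17.8 to 29.2, so that Col-0 replicate 3 stood nearest to the other genotype.

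All 6 genes stood lower in BIC1-YFP, and for each of them every BIC1-YFP library lay below every Col-0 library. The same held for 38.9% of all 1537 genes. Their mean abundance in BIC1-YFP was between 8.40% (AT2G22590) and 38.9% (CHI) of that in Col-0, and the median log2 ratio of means was -1.63, against 0.56 over the whole table and -0.90 over its 728 genes with a lower mean in BIC1-YFP. A limma fit across the table counted all 6 among its genes called lower at an adjusted p under 0.05, which were 39.1% of the 1531 tested. Since this contrast chose the genes, nothing is read from either count. In seedlings, fewer cells that express a gene and less of its RNA per cell cannot be told apart.

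CHS encodes the enzyme that commits carbon to flavonoids by condensing malonyl-CoA with a coumaroyl-CoA starter. It lies on chromosome 5 (TAIR10.1, chr5:4488476-4490264, plus strand) and has 2 exons. Its abundance was 15116, 11279.9 and 12185 units in Col-0 replicates 1, 2 and 3, and 4213, 4409 and 4138 units in BIC1-YFP replicates 1, 2 and 3. The Col-0 libraries spread more widely than the BIC1-YFP libraries, with 12860.3 ± 2005 against 4253 ± 139.8 units (SD, n = 3). The mean was 3.02-fold lower in BIC1-YFP, and the lowest Col-0 library was 2.56 times the highest BIC1-YFP library. Per kb of coding sequence, CHS had the highest level of the 6 genes in both genotypes.

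CHI encodes the isomerase that closes the chalcone into the flavanone naringenin, and it lies on the minus strand of chromosome 3 (chr3:20430059-20431597, 4 exons). It stood at 1679, 1563 and 1386 units in Col-0 replicates 1, 2 and 3 and at 656, 616 and 529.6 units in BIC1-YFP replicates 1, 2 and 3. In each genotype replicate 1 was the highest library and replicate 3 the lowest. The means were 1543 ± 147 and 600.5 ± 64.6 units (SD, n = 3), a 2.57-fold lower level in BIC1-YFP and the smallest fall among the 6 genes.

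F3H encodes the dioxygenase that hydroxylates flavanones at position 3 to give dihydroflavonols (chr3:19025192-19026872, plus strand, 3 or 4 exons by transcript). Its libraries were at 2778, 2416 and 2142 units in Col-0 and at 782, 826 and 722 units in BIC1-YFP, in the order of their replicate numbers. Replicate 3 was again the lowest library of both genotypes, and no value of one genotype came near the other. The means of 2445 ± 319 and 777 ± 52.5 units (SD, n = 3) differed 3.15-fold.

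F3PH encodes a cytochrome P450 that adds a hydroxyl group to the B-ring, so that quercetin and cyanidin can form in place of kaempferol and pelargonidin (chr5:2560328-2563137, plus strand, 4 exons). It stood at 706, 648 and 504 units in the Col-0 libraries and at 145, 116 and 129 units in the BIC1-YFP libraries. The lowest Col-0 library, replicate 3, was still 3.47 times the highest BIC1-YFP library, replicate 1. The mean was 4.76-fold lower in BIC1-YFP (619 ± 104 against 130.1 ± 14.5 units, SD, n = 3). Among the 728 genes with a lower mean its fall ranked 48, where CHS ranked 121 and CHI 185.

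FLS1 encodes the main flavonol synthase, which desaturates dihydroflavonols to kaempferol and quercetin (chr5:2803833-2805606, plus strand, 3 or 4 exons by transcript). Its Col-0 libraries, at 4299, 4281 and 3968 units, were the closest together of the 6 genes, with the highest 1.08 times the lowest. The BIC1-YFP libraries stood at 1553, 1593 and 1306 units, with replicate 3 the lowest. The means were 4183 ± 186 and 1484 ± 156 units (SD, n = 3), a 2.82-fold lower level. FLS1 has near relatives in the genome, among them FLS5 (AT5G63600), and the labels do not say how reads shared between them were counted.

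AT2G22590 is described in the table only as a member of the UDP-glycosyltransferase superfamily, enzymes that attach sugars to small molecules; it has a single exon on chromosome 2 (chr2:9592956-9594579, plus strand). Its values were 155, 138 and 60.5 units in Col-0 replicates 1, 2 and 3 and 8.02, 6.96 and 14.7 units in BIC1-YFP replicates 1, 2 and 3. Replicate 3 was thus the lowest Col-0 library and the highest BIC1-YFP library, and the genotypes were nearest to each other there. The mean was 11.9-fold lower in BIC1-YFP (118 ± 50.5 against 9.90 ± 4.20 units, SD, n = 3), which ranked 12 among the 728 lower genes. Without replicate 3 of both genotypes it was 19.6-fold lower. With 1 library left out at a time it was between 10.0 and 15.7-fold lower. The log2 fold change in the authors' deposited table is -1.96, against a log2 ratio of means of -3.57. For the other 5 genes the authors' deposited table gives values from 0.11 to 0.31 closer to 0 than the ratio of means. F3PH, at -1.94 there, lies beside AT2G22590.

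**Figure D1:**
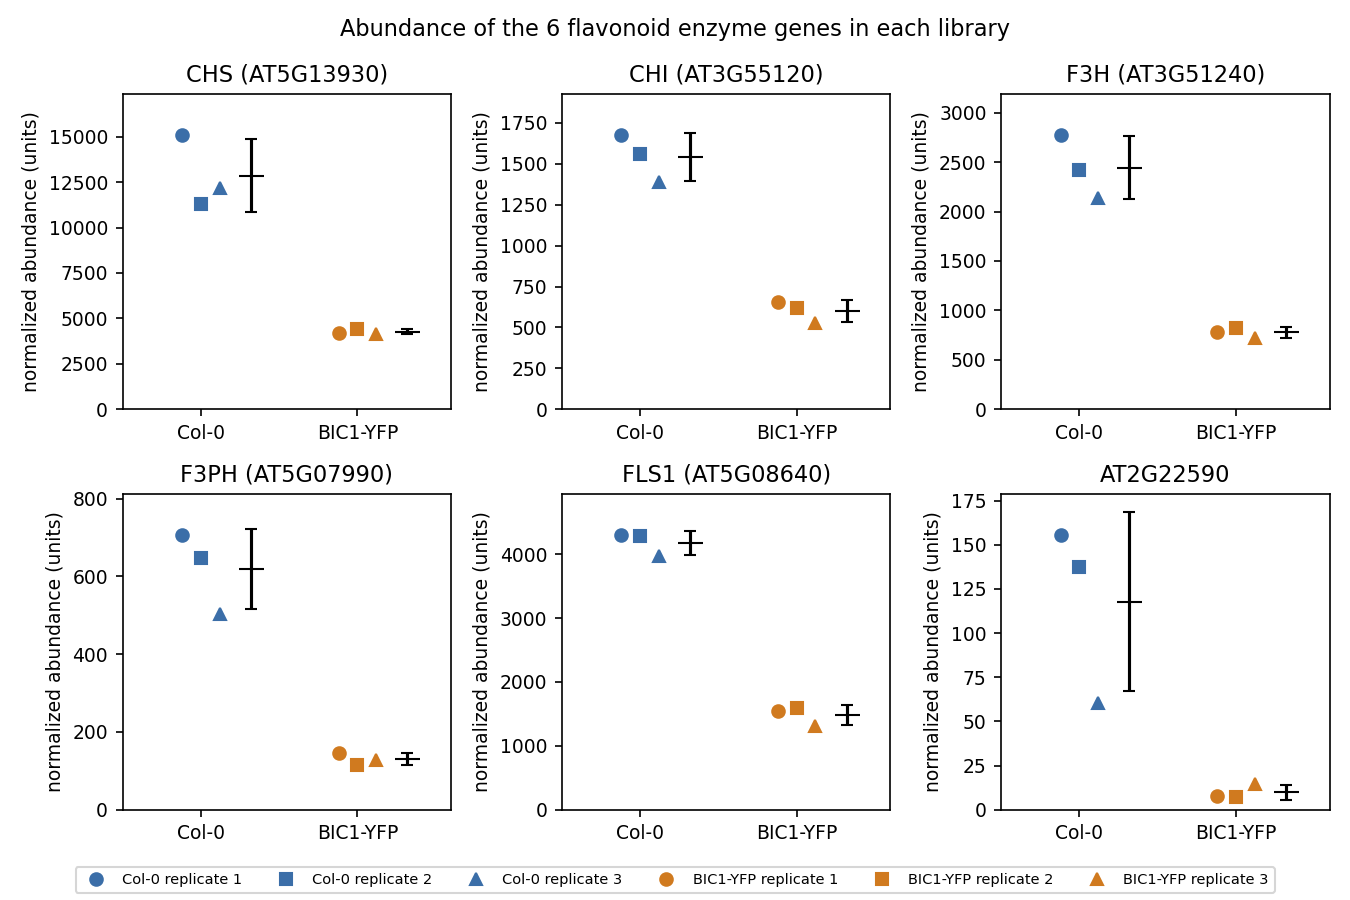
Normalized abundance (units, vertical axis from 0) of the 6 genes in each of the 3 Col-0 and 3 BIC1-YFP libraries, with marker shape giving the replicate number and bars the mean ± SD. Every BIC1-YFP library lies below every Col-0 library, from CHS (4138 to 4409 against 11279.9 to 15116) to AT2G22590 (6.96 to 14.7 against 60.5 to 155).

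The falls formed an order in which not all neighbouring genes could be separated. On the scale log2(value + 1), the difference between the genotype means was -3.40 for AT2G22590 (standard error 0.52 from 3 libraries per genotype), -2.23 for F3PH (0.17), -1.65 for F3H (0.12), -1.59 for CHS (0.13), -1.50 for FLS1 (0.10) and -1.36 for CHI (0.12). Relative to the Col-0 mean of the same gene, the BIC1-YFP libraries of F3PH lay at 18.8% to 23.4% and those of AT2G22590 at 5.91% to 12.5%. Neither range touched that of another of the 6 genes. The ranges of F3H (29.5% to 33.8%), CHS (32.2% to 34.3%), FLS1 (31.2% to 38.1%) and CHI (34.3% to 42.5%) overlapped from each gene to the next, although CHI lay above F3H and just above CHS.

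**Figure D2:**
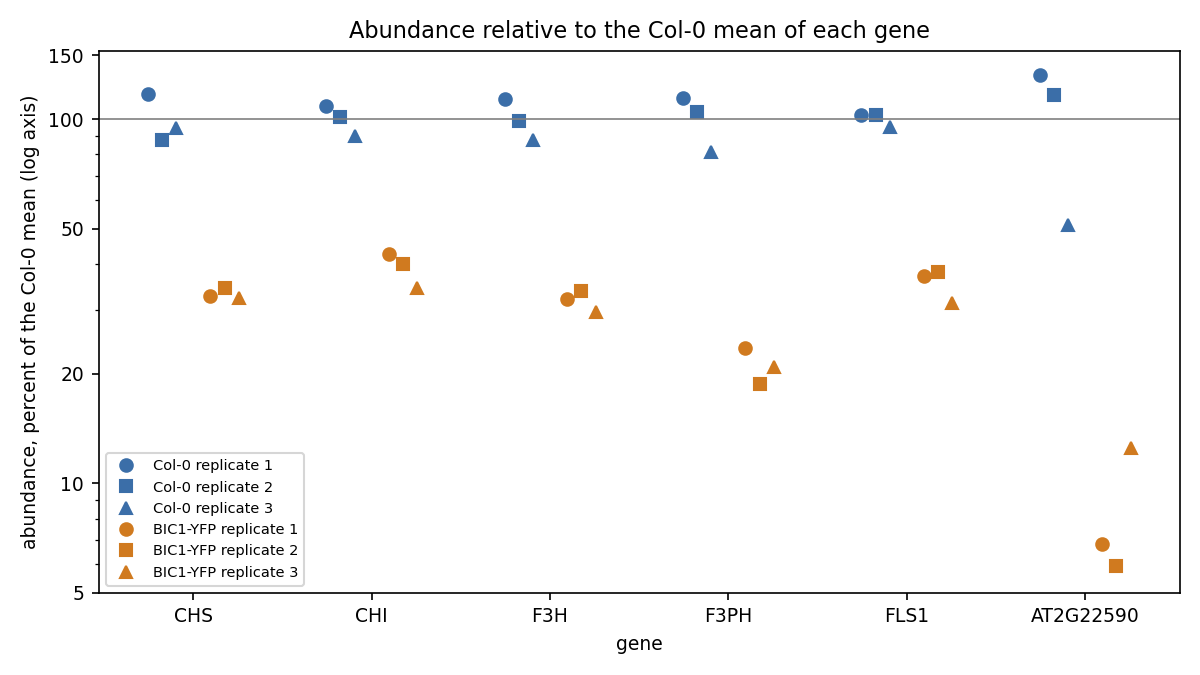
Abundance of each gene in each library as a percent of its own Col-0 mean (log axis), with colour for genotype and marker shape for replicate number. CHS, CHI, F3H and FLS1 lie between 29.5% and 42.5% in BIC1-YFP, F3PH between 18.8% and 23.4%, and AT2G22590 between 5.91% and 12.5%.

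Levels were compared between genes per kb of coding sequence, which rests on reading the values as not divided by length and leaves out untranslated parts of the transcript. In Col-0 the order was CHS at 10825 ± 1688 units per kb, FLS1 at 4137 ± 184, F3H at 2270.5 ± 296, CHI at 2082 ± 199, F3PH at 402 ± 67.5 and AT2G22590 at 83.4 ± 35.7 (SD, n = 3). F3H and CHI did not separate there, since the highest CHI library (2265) lay above the lowest F3H library (1989). In BIC1-YFP the order was CHS at 3580.0 ± 118, FLS1 at 1468 ± 154, CHI at 810.4 ± 87.2, F3H at 721 ± 48.8, F3PH at 84.4 ± 9.42 and AT2G22590 at 7.0 ± 2.97 units per kb. CHI and F3H again overlapped, with CHI from 715 and F3H up to 767 units per kb. Their order depends on the division by length, since in the deposited units F3H lay above CHI without overlap in both genotypes (2142 to 2778 against 1386 to 1679 units in Col-0, 722 to 826 against 529.6 to 656 in BIC1-YFP). The other neighbours in both orders did not overlap.

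Ratios of the per-kb levels within a library do not depend on a single scaling factor per library, and 7 such ratios were computed after the values had been seen. FLS1 stood at 33.4, 44.6 and 38.3 per 100 of CHS in the Col-0 libraries and at 43.3, 42.5 and 37.1 in the BIC1-YFP libraries, so that the genotypes overlapped. F3H stood at 21.1 ± 2.23 per 100 of CHS in Col-0 and at 20.1 ± 0.779 in BIC1-YFP, and CHI at 19.4 ± 2.43 and 22.6 ± 2.23, again with overlap. For none of these 3 ratios were the genotypes separated. CHI was not set against F3H within libraries.

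F3PH stood at 10.8, 9.92 and 8.33 per 100 of FLS1 in the Col-0 libraries and at 6.13, 4.78 and 6.47 in the BIC1-YFP libraries. All 3 BIC1-YFP libraries lay below all 3 Col-0 libraries, and the mean ratio was 1.67-fold lower. Against CHS the ratio of F3PH was 1.58-fold lower (3.74 ± 0.630 and 2.36 ± 0.314 per 100 of CHS, SD, n = 3), also without overlap. AT2G22590 stood at 2.59, 2.30 and 1.09 per 100 of FLS1 in Col-0 and at 0.369, 0.313 and 0.806 in BIC1-YFP, with replicate 3 nearest to the other genotype in both. Its mean ratio to FLS1 in BIC1-YFP was 0.249 times that in Col-0, and 0.140 times without replicate 3 of both genotypes. Against CHS the corresponding values were 0.256 and 0.155. These ratios were not tested, since the same values chose the genes.

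**Figure D3:**
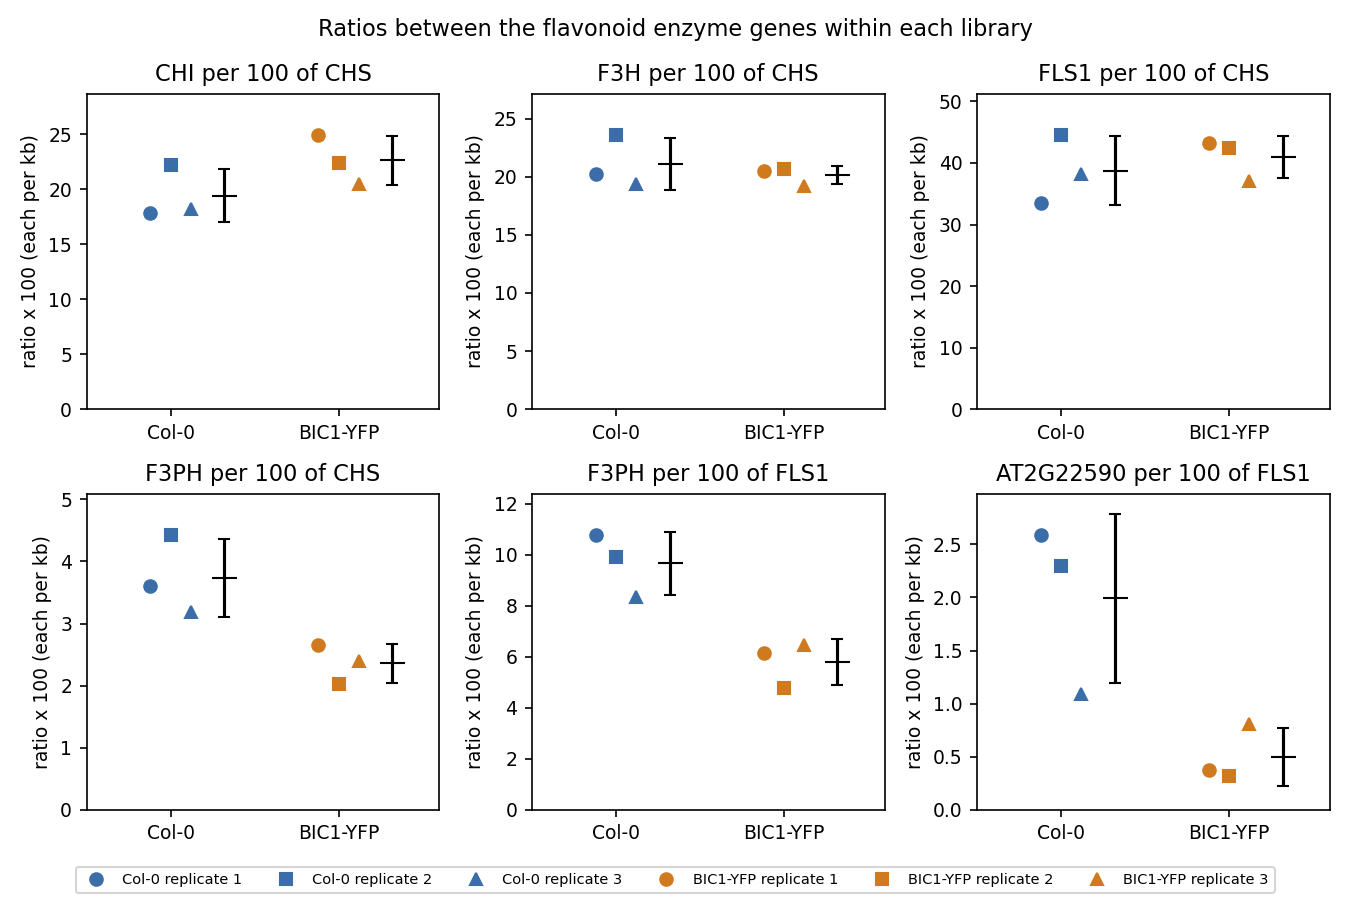
Ratios between the genes within each library, each level taken per kb of coding sequence and multiplied by 100 (vertical axes from 0), with points for libraries and bars for the mean ± SD. CHI, F3H and FLS1 relative to CHS overlap between the genotypes, whereas F3PH relative to FLS1 is at 8.33 to 10.8 in Col-0 and at 4.78 to 6.47 in BIC1-YFP.

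Within a genotype the genes did not all rank the libraries alike. In Col-0, replicate 1 was the highest library for all 6 genes, and replicate 3 the lowest for 5 of them, while for CHS replicate 2 was the lowest. In BIC1-YFP, replicate 3 was the lowest for CHS, CHI, F3H and FLS1, replicate 2 was the lowest for F3PH and AT2G22590, and AT2G22590 was highest in replicate 3. The median deviation of the 6 genes from their genotype mean, on the log2 scale, was 0.20, 0.03 and -0.17 in Col-0 replicates 1, 2 and 3 and 0.04, 0.05 and -0.07 in BIC1-YFP replicates 1, 2 and 3. These median shifts are small beside the differences of -3.40 to -1.36 between the genotypes. AT2G22590 deviated most in every library. Its deviations were 0.51, 0.33 and -0.84 in Col-0 replicates 1, 2 and 3, and -0.21, -0.39 and 0.59 in BIC1-YFP replicates 1, 2 and 3.

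The stretch of 250 bases before each annotated gene start was searched on both strands, because the 6 genes were lower together. RefSeq sequences of the TAIR10.1 assembly matched all 6. The motifs were the core ACGT bound by basic leucine zipper factors, the G-box CACGTG that contains it, the E-box CANNTG that also takes in the G-box, and 3 AC elements known from phenylpropanoid promoters. The first of these AC elements reads ACCTACC in the gene's direction or its reverse complement. The second of them reads ACCAACC. The last of them reads ACCTAAC. The stretches before CHS and F3H, which hold most of the matches, FLS1, which holds none, and AT2G22590, which had the largest fall, read as follows on the strand of the gene, with G-boxes and ACGT cores in capitals. They are chr5:4488226-4488475 (CHS), chr3:19024942-19025191 (F3H), chr5:2803583-2803832 (FLS1) and chr2:9592706-9592955 (AT2G22590), all on the plus strand.
CHS: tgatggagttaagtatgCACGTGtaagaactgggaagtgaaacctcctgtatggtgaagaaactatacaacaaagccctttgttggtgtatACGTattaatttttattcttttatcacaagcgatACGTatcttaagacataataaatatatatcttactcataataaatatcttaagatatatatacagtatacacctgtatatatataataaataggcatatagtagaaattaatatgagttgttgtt
F3H: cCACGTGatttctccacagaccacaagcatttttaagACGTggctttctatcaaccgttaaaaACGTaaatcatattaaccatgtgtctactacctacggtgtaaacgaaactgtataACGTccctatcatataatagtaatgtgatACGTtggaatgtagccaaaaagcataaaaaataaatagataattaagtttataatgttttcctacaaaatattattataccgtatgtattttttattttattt
FLS1: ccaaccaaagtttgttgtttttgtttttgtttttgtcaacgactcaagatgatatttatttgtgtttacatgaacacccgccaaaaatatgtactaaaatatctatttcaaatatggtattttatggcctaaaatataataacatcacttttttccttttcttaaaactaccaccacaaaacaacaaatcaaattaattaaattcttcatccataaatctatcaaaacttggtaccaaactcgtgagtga
AT2G22590: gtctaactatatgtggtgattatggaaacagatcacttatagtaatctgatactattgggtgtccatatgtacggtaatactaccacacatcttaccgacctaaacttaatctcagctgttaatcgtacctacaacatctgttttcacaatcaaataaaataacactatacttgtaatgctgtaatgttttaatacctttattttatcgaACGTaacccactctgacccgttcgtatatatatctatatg

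The G-box was present before 2 of the 6 genes, CHS and F3H, and before 6.49% of the 27437 protein-coding genes searched and 10.0% of the 1465 of these in the analysed table. In CHS it began 233 bases before the start and in F3H 249 bases before it. The ACGT core occurred before 3 of the 6 genes, with 3 matches in CHS, 5 in F3H and 1 in AT2G22590, and before 44.1% of all genes searched. The E-box occurred before 5 of the 6 genes and 55.3% of all genes searched. None of the 3 AC elements was present before any of the 6, and 6.12% of all genes had at least 1. A match in this window is a description of its letters, and the absence of one says nothing of sites elsewhere.

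**Figure D4:**
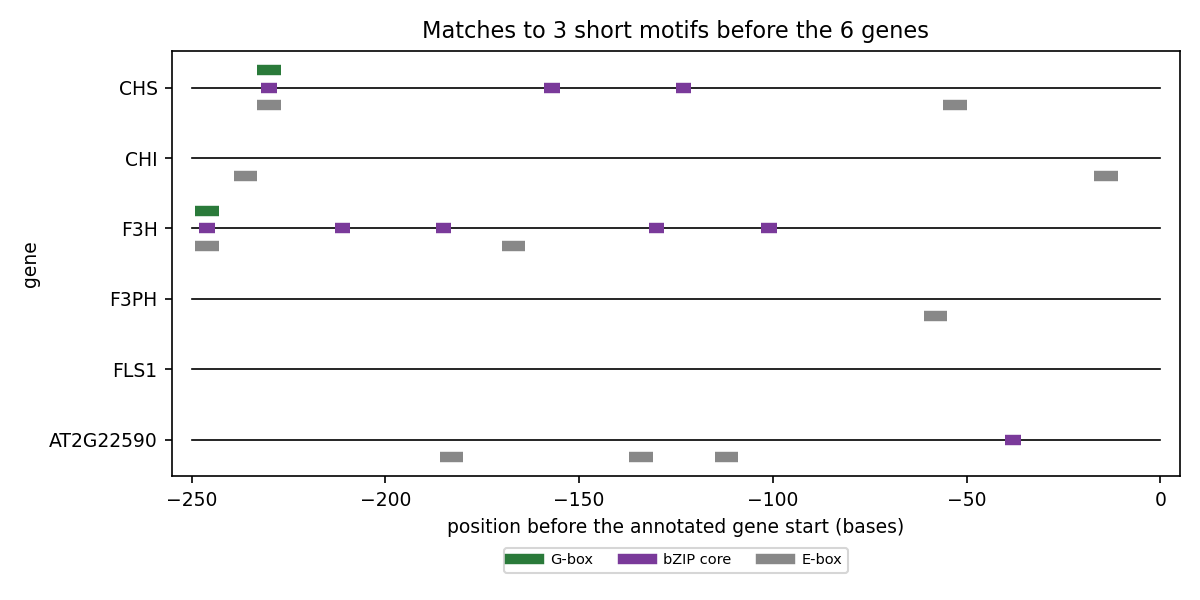
Positions of matches to the G-box (green), the bZIP core ACGT (purple) and the E-box (grey) in the 250 bases before the annotated start of each gene, with the start at 0. CHS has 3 and F3H 5 matches to the core, AT2G22590 has 1, and FLS1 has no match to any of the motifs.

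The other genes of the pathway were taken from 8 lists holding 66 genes, of which 26 are in the table. Of these 26, limma called 25 lower and 1 higher (adjusted p under 0.05), and their median log2 ratio of means was -1.84. Over the whole table, 598 of 1531 tested genes were called lower and 575 higher. The authors had already selected the 26 on the same libraries, so the calls are not independent evidence, and the 40 other genes are not analysed here. With any 1 library left out, between 18 and 24 of the 26 were called lower.

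Upstream of CHS, 3 of 9 genes of general phenylpropanoid metabolism were in the table and all 3 fell. They were the ligase gene 4CL3 (AT1G65060, 2.35-fold lower), and PAL1 (AT2G37040, 1.83-fold) and PAL2 (AT3G53260, 1.62-fold), whose enzymes remove the amino group of phenylalanine. Beside the early enzymes, the isomerase-like gene CHIL (AT5G05270), whose protein aids chalcone synthase, fell from 2946 ± 159 to 1300.1 ± 208 units (SD, n = 3), close to CHI in its 2.27-fold difference. FLS5, a relative of FLS1, was the 1 pathway gene called higher, at 1116, 931 and 1282 units in Col-0 and at 1483, 1600.2 and 1979 units in BIC1-YFP (1.52-fold, limma, adjusted p = 0.025). FLS5 no longer passed when Col-0 replicate 1 or 2, or BIC1-YFP replicate 2 or 3, was left out (limma, adjusted p between 0.0585 and 0.0758). The difference between FLS1 and FLS5 was not tested.

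Of 8 genes listed for flavonol decoration, 5 were in the table and all 5 fell. The list took in UGT84A1, whose namesake UGT84A2 is in the lignin and sinapate list, and substrates were not tested. UGT84A1 (AT4G15480) fell 3.54-fold, UGT78D2 (AT5G17050), a flavonoid 3-O-glucosyltransferase, 2.02-fold, and the glycosyltransferase gene AT1G06000 2.00-fold, although AT1G06000 did not pass once BIC1-YFP replicate 2 was left out (adjusted p = 0.054, limma). UGT78D3 (AT5G17030) was weak, at 5.01, 4.58 and 5.38 units in Col-0 and at 1.00, 0 and 0.0542 in BIC1-YFP, and did not pass when replicate 2 of Col-0 or of BIC1-YFP was left out (adjusted p = 0.05002 and 0.0504, limma). RHM1 (AT1G78570), which makes the sugar donor UDP-rhamnose and is named after its values were seen, was 1.58-fold lower and did not pass without BIC1-YFP replicate 2 (adjusted p = 0.053, limma). UGT78D3 was near 0 in BIC1-YFP. Its means differed 14.2-fold, and 9.44 to 184-fold with 1 library left out at a time. The authors' deposited log2 fold change for UGT78D3 was -5.01, against -1.96 for AT2G22590. The other decoration genes stood below the 11.9-fold difference of AT2G22590.

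The late anthocyanin and regulator genes were also lower. Of 10 late anthocyanin genes 9 were in the table and all 9 fell, with a median log2 ratio of -2.08, led by the acyltransferase gene AT1G03940 (5.19-fold), DFR (AT5G42800, 5.05-fold), AT5MAT (AT3G29590, 4.59-fold) and UGT79B1 (AT5G54060, 4.36-fold). F3PH, whose product feeds the cyanidin branch, lay at -2.25 on this scale, and CHS, CHI, F3H and FLS1 at -1.65 to -1.36. The late genes reached that high only through AT2G23000 (-1.16), named after its values were seen. All other late genes in the table lay at -1.89 or below, so CHS, CHI, F3H and FLS1 fell less than these. Of 13 activators 6 were in the table and all 6 were called lower. They included MYB11 (AT3G62610, 16.2 ± 6.93 to 3.07 ± 1.44 units), PAP2 (AT1G66390, 4.59-fold lower), TT8 (AT4G09820, 3.62-fold lower) and MYB114 (AT1G66380). MYB114 was weak, at 4.01, 10.2 and 7.56 units in Col-0 and 0.00118, 1.76 and 2.27 in BIC1-YFP, and lost its call without any 1 library except BIC1-YFP replicate 3. PAP1 (AT1G56650), also named after its values were seen, was the activator whose genotypes overlapped, at 59.2, 68.9 and 29.8 units in Col-0 and 30.04, 21.8 and 11.3 in BIC1-YFP. It did not pass when Col-0 replicate 1 or 2, or BIC1-YFP replicate 2 or 3, was left out (adjusted p 0.0769 to 0.105, limma). MYB12 (AT2G47460), named after its values were seen because it is known to activate CHS, CHI, F3H and FLS1, fell from 191, 160.2 and 129 to 92.1, 95.4 and 97.9 units. It did not pass when Col-0 replicate 1 or 2, or BIC1-YFP replicate 2, was left out (adjusted p 0.0588 to 0.0633, limma). Of 10 lignin and sinapate genes UGT84A2 (AT3G21560) was in the table and fell 1.76-fold, but did not pass once BIC1-YFP replicate 2 was left out (adjusted p = 0.0574, limma). None of 5 proanthocyanidin genes and 4 repressors was in the table.

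**Figure D5:**
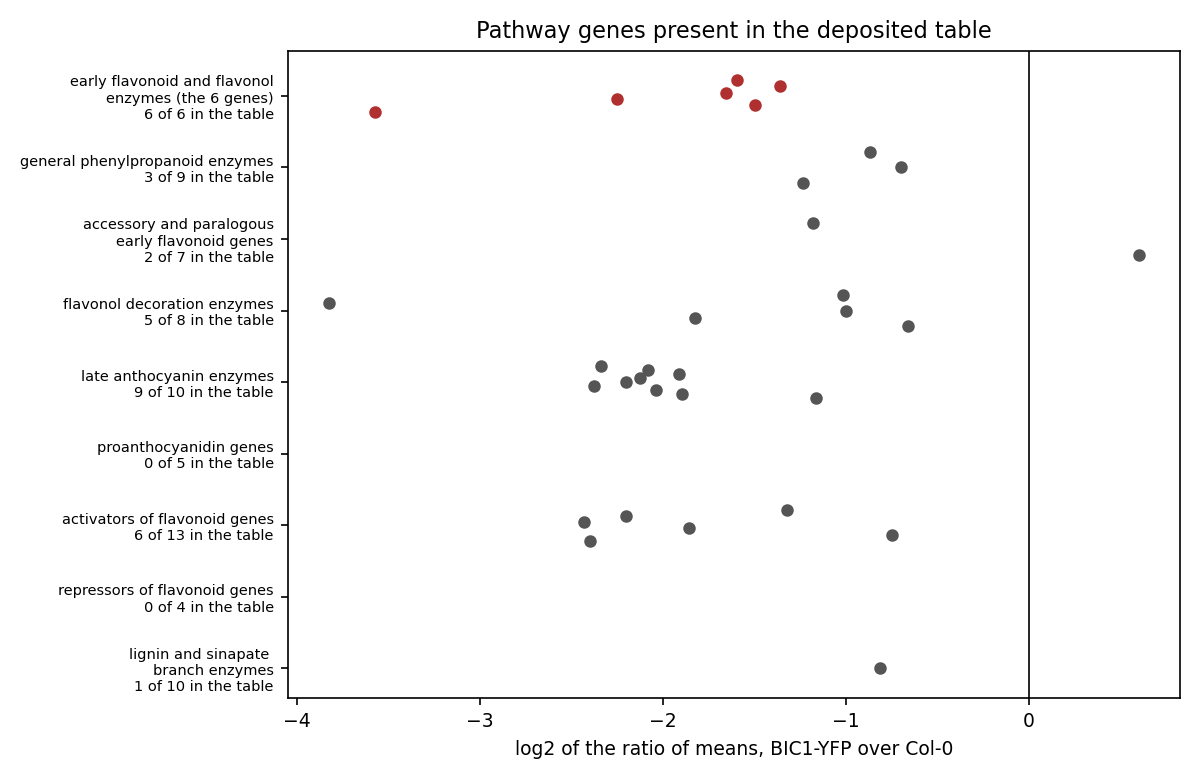
Log2 of the ratio of mean abundances, BIC1-YFP over Col-0 (horizontal axis), with 1 point per gene. Red marks the 6 genes grouped as early flavonoid and flavonol, and grey the genes of 8 pathway lists found in the table. The 6 genes lie between -3.57 and -1.36, the 9 late anthocyanin genes between -2.38 and -1.16, and FLS5, at 0.60, is the 1 gene above 0.

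The genes whose profile over the 6 libraries was most like the mean of the 6 were outside the pathway lists. Likeness was the root mean square difference between log2(value + 1) profiles, each centred on its own mean, among 1414 genes with a mean of at least 10 units. The nearest was AT5G62210, an embryo-specific protein 3 gene (0.11), followed by the beta-glucosidase gene BGLU47 (AT4G21760, 0.15), the methyl esterase gene MES18 (AT5G58310, 0.17), the leucine-rich repeat kinase gene AT3G46370 (0.17) and AT4G06175, which has no description (0.18). AT5G62210 stood at 415, 342 and 347 units in Col-0 and at 87.1, 84.1 and 92.7 units in BIC1-YFP. The nearest pathway gene was TT8, in place 6 (0.20). Among the 6 themselves, F3PH (0.16) and F3H (0.18) lay nearest to their mean profile, and AT2G22590 (0.83) farthest from it, with a median of 1.28 over the genes searched. The mean profile includes AT2G22590, with its genotype difference of -3.40 on this scale. The 5 nearest genes differed by -2.05 to -1.73, more than CHS, CHI, F3H and FLS1 (-1.65 to -1.36).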

How the data were processed

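RNA of 3 Col-0 and 3 BIC1-YFP libraries was sequenced on an Illumina instrument, as the labels state. Reads were mapped to TAIR10 and expression values were made with Cufflinks, per the submitters' processing notes and design text. The labels do not state the aligner, the scaling between libraries or the authors' test. The authors deposited a normalized signal per gene and library, their genotype means, log2 fold changes, and p-values with adjusted p-values, for genes already selected as different. The design assumed abundances that are not counts, and the signal was tested accordingly. Of the deposited values above 0 and under 15, 95.9% in Col-0 replicate 1 and 100% in BIC1-YFP replicate 1 lay within 0.05 of a whole number, against 5.38% to 10.1% in the others, and exact zeros occurred in replicate 2 of both genotypes (27 and 11), in no other library. The values are therefore read as not divided by length, which no label states, and the labels do not say how each replicate was handled.

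The 1531 of 1537 genes that reached 1 unit in 3 libraries were transformed to log2(value + 1). Genotypes were compared by limma (version 3.58.1, R 4.3.3) using a variance trend, no covariate and Benjamini-Hochberg adjustment over all tested genes. The procedure was tested on simulated counts in which a minority of genes changed. The deposited values are not counts and come from a selected list, so that test does not bear on the calls here. Folds are ratios of mean abundances, and on the log scale the change of weak genes is understated. The p-values set the difference between genotypes against the spread of libraries within genotypes, estimated over both. The adjustment ran over genes already selected as different, so an adjusted p is not an error rate over the whole genome. The genes and lists were chosen with earlier results of these data known. Named pathway genes are up to 4 per list with the largest log2 ratio of means, and the 5 nearest profiles. Gene positions, coding lengths and promoters came from RefSeq's TAIR10.1 genome and annotation, matched by locus identifier. The deposited table holds no coordinates.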

Additional observations from a re-analysis of the deposited data

How the results depend on the processing

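The 6 genes kept their direction in every alternative run, and their median log2 fold change (-1.62 on the scale log2(value + 1)) lay between -1.69 under median-ratio scaling and -1.51 without Col-0 replicate 1. The number of genes called over the table (1173) lay between 441 (without BIC1-YFP replicate 2) and 1219 (without Col-0 replicate 3) with 1 library left out. Fewer libraries lower the power, and why the libraries differ in this was not tested. It lay between 1093 and 1174 under the other pseudocounts (0.1 and 5), filters, scaling and trend setting, and was 978 without replicate 3 of both genotypes, an alternative chosen after seeing the data. With the replicate number as a block, 1445 genes were called and 25 pathway genes stayed lower. The labels pair no libraries, so the numbers were not used as pairs. Across genes, deviations from the genotype means were correlated between the genotypes. Replicate 2 correlated at 0.04 with its own number, and BIC1-YFP replicate 2 at 0.09 with Col-0 replicate 1. Replicates 1 and 3 correlated at 0.42 and 0.44 with their own number and at -0.43 and -0.40 crosswise. Deviations within a genotype cancel out, so these correlations are not independent of one another. Low abundance values also differ by number, so shared handling by number is a hint from the data and was not tested. Of 32 other genes followed (26 pathway genes, the 5 nearest profiles and BIC1), all called, 8 lost the call under at least 1 alternative and none changed sign. Median-ratio scaling moved the log2 fold change of a gene by a median of -0.08 over the tested genes. Its scaling factors came from the same selected genes. Depth is unknown, so the precision of weak genes such as AT2G22590 in BIC1-YFP is limited to what 3 libraries show.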
